A study of Mus musculus with 10 samples.

Results

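The genes described here encode the proton pump of the lysosome, its cathepsins and its main membrane glycoproteins, measured by RNA sequencing in inguinal white fat of old mice. They were taken from the deposited expression table as the protein-coding genes whose symbols begin with Atp6v or Atp6ap, consist of Cts and 1 further letter, or are Lamp1 or Lamp2. Atp6v0d2 and Ctsk also carry such symbols and were left out by the rule. This gave 37 genes of 31285 in the table, made up of 21 genes of the vacuolar proton pump (V-ATPase), 14 cathepsin genes and the 2 LAMP genes. The tissue came from 5 Ad-GHRKO and 5 Flox samples, all at 20 months of age and on regular chow. In Ad-GHRKO mice the growth hormone receptor gene Ghr was knocked out in adipose tissue, and the sample labels call this genotype GHR Knockdown. Flox is the genotype it was set against. The sources used here do not give the driver of the knockout, the sex of the mice or whether any sample pooled animals. The labels tie no library to a separate mouse, so every p-value reflects only how far these samples spread, which may be technical.

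Lysosomes break down proteins, lipids and sugars that reach them by endocytosis, phagocytosis and autophagy. The V-ATPase acidifies them: its V1 sector in the cytosol splits ATP, and the turning of a central stalk moves protons through the V0 sector in the membrane. Cathepsins are the proteases of this acid space, and LAMP glycoproteins line the inner face of its membrane. In fat, adipocytes and macrophages both carry these proteins, and macrophages around dying adipocytes are known for active lysosomes. Many lysosomal genes carry an E-box with the letters CACGTG near their start, which transcription factors of the MiT-TFE family, such as TFEB, bind.

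Promoter sequences are shown for the genes with that E-box, because it is a sequence feature that members of different roles share. RefSeq windows on GRCm38.p6, reaching from 250 bases before to 50 bases after a start site, were found for 28 of the 37 genes (32 windows of 300 bases). CACGTG was searched for on both strands, on which it reads the same. It stood in a window of 9 of the 28 genes (32.1%), against 2187 of 27025 genes in the whole promoter table (8.09%). Among tested genes with a window, it stood in 9 of the 23 members (39.1%) and in 1078 of all 9116 (11.8%). By windows, the shares were 28.1% of 32 and 7.15% of 32851. The longer palindrome TCACGTGA, which contains CACGTG, stood in 5 of the 28 genes (17.9%), against 1.12% of all genes in the table. Among tested genes with a window, it stood in 5 of the 23 members (21.7%) and in 2.2% of all. The stretches around the matches are given 5′ to 3′ on the strand of the gene, with CACGTG in capitals.
Lamp1, chr8:13159080-13159171, plus strand: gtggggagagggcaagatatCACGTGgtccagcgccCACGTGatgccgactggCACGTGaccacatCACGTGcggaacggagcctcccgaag
Ctsd, chr7:142387900-142388077, minus strand: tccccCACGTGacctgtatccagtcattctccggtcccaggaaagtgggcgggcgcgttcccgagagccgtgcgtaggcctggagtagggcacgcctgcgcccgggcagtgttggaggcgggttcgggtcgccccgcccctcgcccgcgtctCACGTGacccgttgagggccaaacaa
Ctsa (1 of its 2 windows), chr2:164833741-164833803, plus strand: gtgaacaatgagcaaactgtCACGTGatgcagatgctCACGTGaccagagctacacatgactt
Atp6v0d1, chr8:105566042-105566087, minus strand: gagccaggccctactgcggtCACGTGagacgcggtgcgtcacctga
Atp6v0e, chr17:26676379-26676424, plus strand: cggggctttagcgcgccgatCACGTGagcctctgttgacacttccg
Atp6v1a, chr16:44139365-44139410, minus strand: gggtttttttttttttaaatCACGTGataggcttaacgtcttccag
Atp6v0b, chr4:117887322-117887385, minus strand: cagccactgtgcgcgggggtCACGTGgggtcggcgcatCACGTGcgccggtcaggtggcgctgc
Ctsl, chr13:64370731-64370770, minus strand: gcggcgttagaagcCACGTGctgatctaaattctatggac
Ctsf, chr19:4855066-4855111, plus strand: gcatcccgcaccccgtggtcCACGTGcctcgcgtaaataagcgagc

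Lamp1 held 4 copies of the E-box within 92 bases, and Atp6v0b, Ctsa and Ctsd held 2 copies each. The genes with a match spanned both pump sectors, cysteine, aspartic and serine cathepsins, and Lamp1. Ctss, Ctsz and Lamp2 had no match in their windows. A match is a description of letters and does not show binding. Windows were not found for Atp6v0a2, Atp6v1b2, Atp6v1c1, Atp6v1g1, Atp6v1h, Ctsb, Ctse, Ctsh and Ctsw.

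The targeted gene and the make-up of the libraries set the frame for all values below. Ghr was at 16.6 ± 2.71 FPKM in Ad-GHRKO and 93.5 ± 21.9 FPKM in Flox fat (SD, n = 5 each; exact two-sided permutation p = 0.00794, the smallest that 5 against 5 allows). FPKM is fragments per kilobase of a gene's exons, scaled to the library's total, so levels of different genes can be compared per length. Recovered depth was 14.6 to 19.3 M reads a library (M, mega). In all, 3 libraries stood apart: the 10 genes of a skeletal muscle list took 16.2% of the summed FPKM in Ad-GHRKO 1, 9.01% in Flox 5 and 6.11% in Flox 3, and at most 0.206% in each of the other 7. Adipocyte markers summed to 3262 to 9271 FPKM in Ad-GHRKO and 6365 to 9933 FPKM in Flox libraries. In the 3 muscle-rich libraries the muscle list summed to more than these adipocyte markers: 53102 against 3262 FPKM in Ad-GHRKO 1, 30072 against 6888 FPKM in Flox 5 and 20518 against 6365 FPKM in Flox 3. In bulk tissue, fewer cells of a type and less RNA per cell cannot be told apart.

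Ctsb and Lamp1, the markers of the set, were among its 4 most abundant members. Ctsb, a cysteine endopeptidase, had the highest mean over the 10 libraries at 457 FPKM. It was followed by Ctsz, a carboxypeptidase (243 FPKM), Ctsd, the main aspartic protease (233 FPKM), and Lamp1 (204 FPKM), whose ranges over the libraries overlapped one another. The most abundant pump genes were Atp6v1g1 (82.8 FPKM), Atp6v1f (78.3 FPKM) and Atp6v0d1 (70.9 FPKM). Summed over the 37 genes, Ad-GHRKO libraries held 1435, 2143, 2298, 2047 and 2743 FPKM (replicates 1 to 5), against 2196, 2256, 1688, 2310 and 1776 FPKM in Flox libraries. The sums of the genotypes overlapped, and the lowest and the highest library were both Ad-GHRKO.

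Between the genotypes, none of these genes passed the test. Of the 37, 31 had at least 1 FPKM in at least 5 libraries and were tested with limma on log2(FPKM + 1). At an adjusted p of 0.05, 0 of the 31 were called higher (0.774% of the 12785 genes tested were) and 0 lower (1.42% of all genes tested; 2.19% in either direction). The median log2 change was 0.08 over the 31 members and 0.04 over all genes tested, with 18 members positive and 13 negative. With limma voom on recovered reads 1 member, Atp6v0a1, was called higher, against 1.44% of all genes tested. Over the 23 other settings tried the members' median lay between -0.08 and 0.24, and that of all genes tested between -0.03 and 0.13. At an unadjusted p under 0.05 there were 6 members, against 16.4% of all genes: Atp6v0a1, Atp6ap2, Ctss and Ctsl with positive changes, and Lamp1 and Ctsw with negative ones. In 1 member, Lamp1, every Ad-GHRKO library was below every Flox library (3.35% of all genes tested), and in 0 members every Ad-GHRKO library was above (1.62% of all genes tested).

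**Figure D1:**
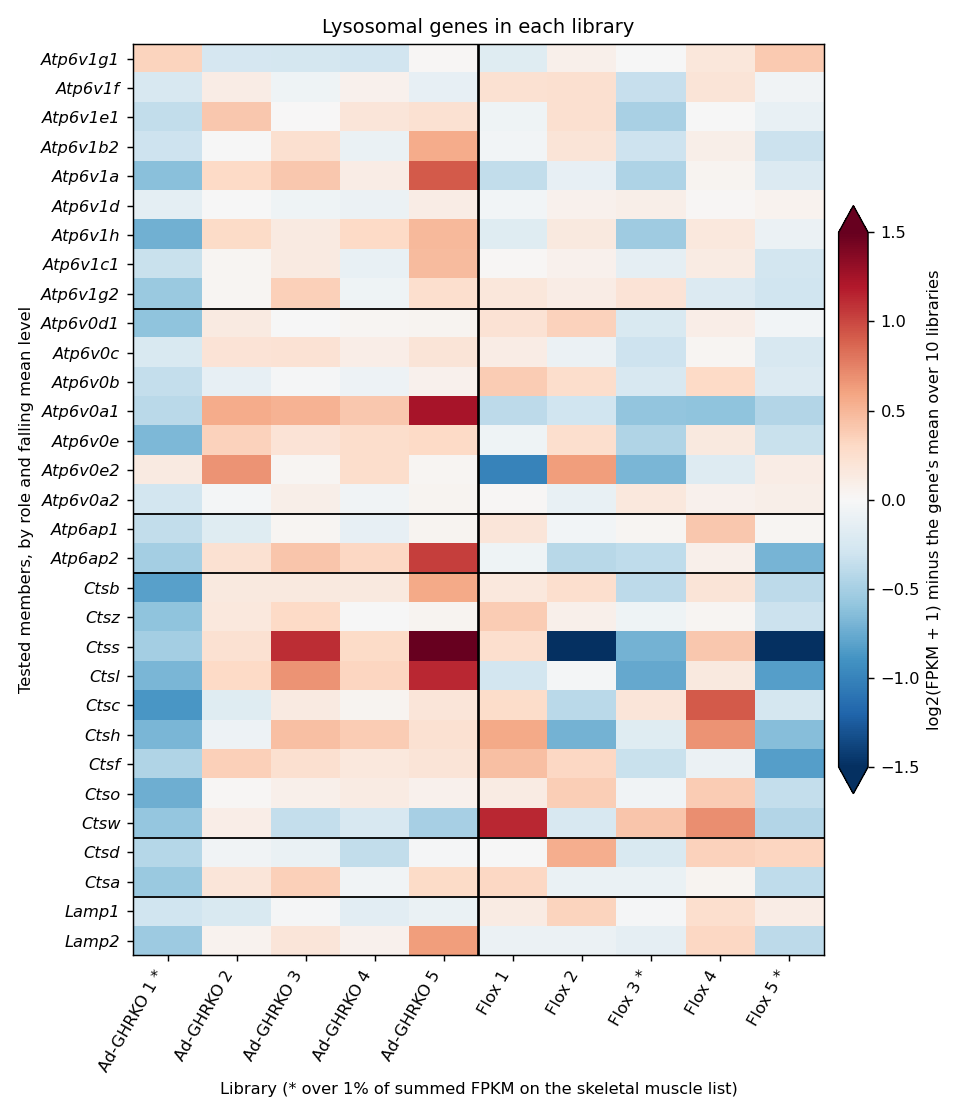
Each row is a tested member, grouped by role (V1, V0, accessory proteins, cysteine cathepsins, aspartic and serine cathepsins, LAMP), and each column a library, Ad-GHRKO left of the black line and Flox right of it. Colour gives log2(FPKM + 1) minus the gene's mean over 10 libraries, capped at 1.5 either way. Ad-GHRKO 1 is low for most rows, Ad-GHRKO 5 is high for Ctss, Ctsl and Atp6v0a1, and Lamp1 is the row in which the genotypes do not overlap.

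Ad-GHRKO 1 stood apart for many members. It held the lowest value for 19 of the 31 tested members, while Ad-GHRKO 5 held the highest for 11. Without Ad-GHRKO 1, 4 members were called higher: Atp6v0a1, Atp6ap2, Atp6v1a and Ctsl. That fit called 6.09% of all genes higher, and its median log2 change was 0.24 over the members and 0.10 over all genes. In it, 19 of the 31 members and 64.0% of all genes tested had positive changes. How many of all genes tested had Ad-GHRKO 2 to 5 above every Flox library was not counted. Ad-GHRKO 1 is the library with the largest muscle share, and low values went with muscle-rich libraries more widely (of the muscle list, 3 of 10 genes were tested and 0 called). In 13 of the 31 members all 3 muscle-rich libraries were below all 7 others, against 14.6% of all genes tested, and in 0 members were they above. Those 13 included Ctsb, Ctsl, Ctsz, Lamp2, Atp6v0d1 and the ring subunit gene Atp6v0c. With all 3 muscle-rich libraries left out, Atp6v0a1 was the only member called, higher as were 2.96% of all genes tested. What part muscle tissue in the sample had in these values was not tested.

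In the V1 sector no gene passed the test, and the log2 changes ran from -0.18 to 0.45. Atp6v1a encodes the catalytic A subunit, which binds and splits ATP (chr16:44085402-44139705, GRCm38). Its level was 9.80, 19.6, 21.1, 17.1 and 30.7 FPKM in the Ad-GHRKO libraries, against 12.0, 14.3, 11.1, 16.1 and 13.5 FPKM in the Flox libraries. Ad-GHRKO 2 to 5 were above all Flox libraries and Ad-GHRKO 1 below all of them. The log2 change was 0.45 ± 0.24 (SE; 95% interval -0.08 to 0.98; limma adjusted p = 0.402), and it was 0.66 (adjusted p = 0.0409) without Ad-GHRKO 1 and 0.27 (adjusted p = 0.686) without Ad-GHRKO 5. Atp6v1g1, a stator subunit gene, averaged 77.8 ± 15.6 FPKM in Ad-GHRKO and 87.8 ± 13.2 FPKM in Flox libraries (adjusted p = 0.649). Its values were 103, 68.7, 67.8, 66.8 and 82.5 FPKM in Ad-GHRKO, against 71.9, 86.0, 81.6, 92.3 and 107 FPKM in Flox. It was highest within each genotype in the library richest in muscle transcripts.

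The other 7 tested V1 genes had log2 changes of -0.10 to 0.20, with groups that overlapped. Atp6v1b2, the B subunit gene in use in this tissue, averaged 34.9 ± 8.67 FPKM in Ad-GHRKO and 30.9 ± 5.02 FPKM in Flox. Atp6v1e1, a stator subunit gene, averaged 40.2 ± 7.90 FPKM in Ad-GHRKO and 35.3 ± 6.35 FPKM in Flox. Atp6v1f, of the central stalk, was at 75.2 ± 7.47 FPKM in Ad-GHRKO and 81.4 ± 13.5 FPKM in Flox. Atp6v1d, the other stalk gene, had the smallest SE of the 31 tested members (0.099 on the log2 scale), at 10.8 ± 0.812 FPKM in Ad-GHRKO and 11.3 ± 0.429 FPKM in Flox (95% interval of the log2 change -0.29 to 0.14). Atp6v1h and Atp6v1c1, whose products act in the joining of V1 to V0 or its control, were at 9.28 ± 2.79 and 6.73 ± 1.65 FPKM in Ad-GHRKO, against 7.77 ± 1.64 and 6.22 ± 0.797 FPKM in Flox. Atp6v1g2, known from neurons, was low at 2.74 ± 0.846 FPKM in Ad-GHRKO and 2.66 ± 0.565 FPKM in Flox.

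Among the tested V0 members the largest difference lay in a gene of subunit a. The left-out V0 gene Atp6v0d2, given below, had a larger one. Subunit a ties the stator to the proton path, and its isoforms are known to place the pump on different membranes. Atp6v0a1 (chr11:101009452-101063719, GRCm38) was at 23.4, 46.6, 45.2, 41.7 and 74.8 FPKM in the Ad-GHRKO libraries, against 23.5, 25.2, 20.5, 20.1 and 22.8 FPKM in the Flox libraries. The Flox values lay close together, Ad-GHRKO 2 to 5 were all above them, and Ad-GHRKO 1 lay among them. The means were 46.3 ± 18.4 FPKM in Ad-GHRKO and 22.4 ± 2.15 FPKM in Flox, 2.07-fold apart. Its log2 change of 0.93 ± 0.24 (SE; 95% interval 0.40 to 1.46) had an adjusted p of 0.0782 in limma and missed the threshold. Without Ad-GHRKO 1 it was 1.14 (adjusted p = 0.0055), without the 3 muscle-rich libraries 1.11 (0.0296) and with limma voom on recovered reads 0.98 (0.0364). The leave-one-out fits other than that one gave adjusted p of 0.126 to 0.170, and a replicate block 0.147. Adjusting for the macrophage markers gave 0.84 (0.138).

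Set against its own family, Atp6v0a1 took a larger share in every Ad-GHRKO library than in any Flox library. The family has 4 genes here, of which Tcirg1, encoding isoform a3, does not fall under the naming rule. Atp6v0a1 made up 51.3%, 63.0%, 53.0%, 61.5% and 65.4% of the family's summed FPKM in the Ad-GHRKO libraries, against 42.3%, 51.0%, 41.2%, 41.4% and 49.5% in the Flox libraries. The ranges did not overlap, although Ad-GHRKO 1 and Flox 2 were nearly level. Atp6v0a2 took 8.12% to 15.8% in Ad-GHRKO and 16.3% to 20.9% in Flox libraries, also without overlap. Its own level was 8.70 ± 0.927 FPKM in Ad-GHRKO and 9.29 ± 0.705 FPKM in Flox (log2 change -0.09, 95% interval -0.33 to 0.16). Tcirg1 averaged 22.3 ± 7.41 FPKM in Ad-GHRKO and 18.1 ± 3.53 FPKM in Flox, and its share overlapped. These shares were singled out after their values were seen and carry no test.

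**Figure D2:**
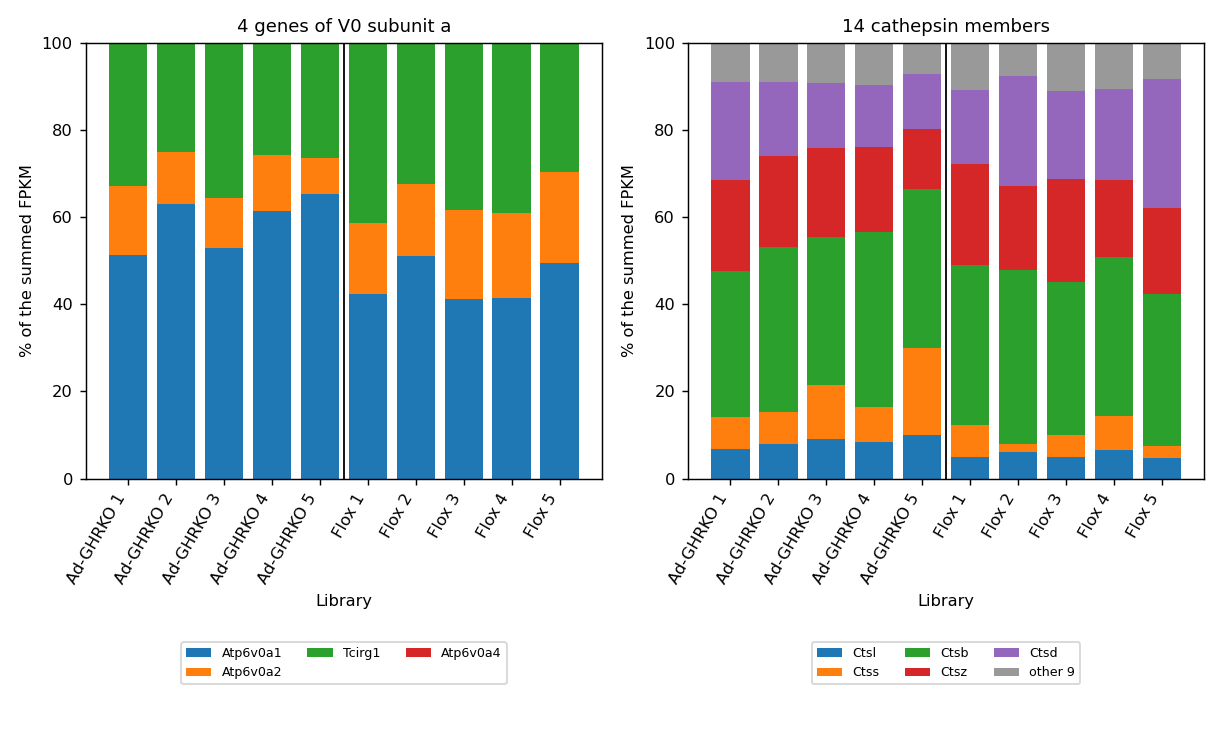
Stacked bars give, per library, the percentage of summed FPKM of the 4 subunit a genes (left) and of the 14 cathepsin members (right), with Ad-GHRKO libraries left of the black line and Flox libraries right of it. Atp6v0a1 makes up 51.3% to 65.4% of its family in Ad-GHRKO and 41.2% to 51.0% in Flox libraries. Ctsl makes up 6.73% to 10.1% of the cathepsins in Ad-GHRKO and 4.76% to 6.57% in Flox libraries, while Atp6v0a4 is too low to be seen.

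In the remaining V0 genes the groups overlapped and none passed the test. Atp6v0d1, which joins the stalk to the proteolipid ring, was at 45.7, 77.1, 69.9, 71.1 and 72.0 FPKM in Ad-GHRKO libraries, against 81.2, 89.1, 59.7, 75.3 and 68.2 FPKM in Flox libraries (log2 change -0.16, adjusted p = 0.707; without Ad-GHRKO 1, -0.029 and 0.907). The values overlapped, with Ad-GHRKO 1 well below the rest. The ring genes Atp6v0c and Atp6v0b averaged 52.0 ± 6.30 and 34.2 ± 3.71 FPKM in Ad-GHRKO, against 45.3 ± 5.66 and 39.9 ± 8.16 FPKM in Flox. Atp6v0e and Atp6v0e2, genes of the small e subunit, averaged 35.1 ± 8.76 and 22.7 ± 4.78 FPKM in Ad-GHRKO, against 30.6 ± 6.52 and 17.4 ± 8.26 FPKM in Flox. Atp6v0e2 spread widely, between 8.98 and 29.9 FPKM among the Flox libraries alone. The left-out gene Atp6v0d2, an alternative d subunit gene known from osteoclasts and macrophages, was at 2.35 to 46.4 FPKM in Ad-GHRKO and 0.213 to 0.598 FPKM in Flox libraries (log2 change 2.69, adjusted p = 0.0465). Its call ended under 12 of the 22 other settings that gave it a value, single libraries left out among them. Atp6v0d1 therefore made up 60.8% to 95.7% of the d subunit FPKM in Ad-GHRKO and 99.2% to 99.7% in Flox libraries.

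The log2 changes of the accessory proteins had opposite signs. Atp6ap2, also known as the prorenin receptor, is needed for pump assembly. It was at 12.8, 21.8, 25.1, 23.2 and 39.0 FPKM in the Ad-GHRKO libraries, against 17.6, 13.7, 14.1, 19.6 and 11.03 FPKM in the Flox libraries. Ad-GHRKO 2 to 5 lay above all Flox libraries, and Ad-GHRKO 1 lay above Flox 5 only. The log2 change was 0.59 ± 0.25 (SE; 95% interval 0.04 to 1.15; limma adjusted p = 0.273), against 0.79 (0.0397) without Ad-GHRKO 1 and 0.36 (0.402) after adjusting for macrophage markers. Atp6ap1, the gene of the Ac45 protein, was at 48.9, 55.5, 64.4, 58.2 and 65.1 FPKM in Ad-GHRKO, against 71.9, 61.3, 64.6, 84.1 and 64.9 FPKM in Flox (log2 change -0.24, 95% interval -0.54 to 0.06, adjusted p = 0.423). Its groups overlapped, with Flox 4 the highest. Neither passed the test with all libraries.

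Among the cysteine cathepsins, Ctsb averaged 475 ± 144 FPKM in Ad-GHRKO and 439 ± 95.1 FPKM in Flox. It stood at 251, 489, 489, 490 and 655 FPKM in the Ad-GHRKO libraries, against 492, 527, 336, 504 and 335 FPKM in the Flox libraries. The 3 muscle-rich libraries held its 3 lowest values, and Ad-GHRKO 5 its highest. The log2 change was 0.08 (95% interval -0.50 to 0.65; adjusted p = 0.922), and its sign turned in 4 other settings, named in the closing part. Ctsb made up 33.3% to 40.0% of the cathepsin FPKM in Ad-GHRKO and 34.8% to 39.9% in Flox libraries.

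Ctsl, a further endopeptidase of lysosomes, and Ctss, which trims the invariant chain in antigen-presenting cells, had the largest positive changes of the cathepsins, neither past the threshold. Ctsl was at 50.7, 101, 132, 103 and 180 FPKM in the Ad-GHRKO libraries, against 67.8, 80.2, 47.9, 91.1 and 45.8 FPKM in the Flox libraries. Again Ad-GHRKO 2 to 5 were above all Flox libraries, and Ad-GHRKO 1 was within the Flox range. The log2 change was 0.70 ± 0.32 (SE; 95% interval 0.01 to 1.39; limma adjusted p = 0.302), and it was 0.96 (0.0416) without Ad-GHRKO 1, 0.50 (0.563) without Ad-GHRKO 5 and 0.48 (0.470) after adjusting for macrophage markers. As a share of all cathepsin FPKM, Ctsl took 6.73% to 10.1% in Ad-GHRKO and 4.76% to 6.57% in Flox libraries, without overlap. That share was also singled out after it was seen and has no test.

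Ctss was at 56.7, 95.7, 177, 99.4 and 356 FPKM in the Ad-GHRKO libraries, against 97.4, 25.7, 49.4, 108 and 26.6 FPKM in the Flox libraries. Both genotypes spread widely and overlapped, and Ad-GHRKO 5 stood highest by far. Its log2 change was 1.30 ± 0.53 (SE; 95% interval 0.13 to 2.47; adjusted p = 0.254), 0.93 (0.484) without Ad-GHRKO 5 and 0.71 (0.289) after adjusting for macrophage markers. Macrophage markers varied with it by library (0 of 11 tested were called): summed over 12, they were at 938, 1314, 1815, 1810 and 2338 FPKM in Ad-GHRKO, against 1922, 651, 1215, 1942 and 649 FPKM in Flox. Flox 2 and Flox 5 were lowest for both the markers and Ctss, and Ad-GHRKO 5 highest for both. The share of macrophages in this difference was not tested beyond that adjustment.

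Ctsw, a cathepsin of NK and cytotoxic T cells, was the cathepsin with the largest negative change. It was at 0.927, 2.10, 1.26, 1.46 and 1.05 FPKM in the Ad-GHRKO libraries, against 5.35, 1.45, 2.84, 3.68 and 1.14 FPKM in the Flox libraries (29 to 160 reads). The groups overlapped at the low end. Its log2 change was -0.63 ± 0.28 (SE; 95% interval -1.24 to -0.02; adjusted p = 0.292). T and NK cell markers (0 of 3 tested were called) varied with it by library, with summed levels over 6 genes of 5.35, 7.62, 4.61, 9.54 and 4.71 FPKM in Ad-GHRKO and 22.1, 7.26, 12.5, 19.4 and 3.96 FPKM in Flox. Flox 1 and Flox 4 were highest for the markers and for Ctsw, and the part of these cells in it was not tested.

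The other 5 tested cysteine cathepsins had log2 changes of -0.28 to 0.20 and overlapping groups. Ctsz averaged 241 ± 51.6 FPKM in Ad-GHRKO and 246 ± 43.9 FPKM in Flox (log2 change -0.04, 95% interval -0.48 to 0.40). Ctsc, a dipeptidyl peptidase that activates granule proteases, averaged 21.8 ± 5.82 FPKM in Ad-GHRKO and 27.3 ± 10.9 FPKM in Flox. The aminopeptidase gene Ctsh averaged 17.5 ± 5.16 FPKM in Ad-GHRKO and 16.8 ± 7.95 FPKM in Flox. Ctsf and Ctso averaged 15.3 ± 3.15 and 11.03 ± 2.55 FPKM in Ad-GHRKO, against 13.7 ± 4.90 and 12.6 ± 2.79 FPKM in Flox.

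Of the aspartic and serine cathepsins, Ctsd was at 169, 219, 212, 176 and 225 FPKM in the Ad-GHRKO libraries, against 226, 333, 194, 289 and 284 FPKM in the Flox libraries. All 5 Ad-GHRKO values were below those of 4 Flox libraries, and Flox 3, which is muscle-rich, lay among them. The log2 change was -0.39 ± 0.18 (SE; 95% interval -0.79 to 0.01; limma adjusted p = 0.316). Ctsa, a serine carboxypeptidase that also shields β-galactosidase and neuraminidase, averaged 46.0 ± 10.7 FPKM in Ad-GHRKO and 42.7 ± 7.73 FPKM in Flox (95% interval of the log2 change -0.34 to 0.51).

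Lamp1 and Lamp2 encode the LAMP glycoproteins, and Lamp2 has a splice form that serves chaperone-mediated autophagy. Lamp1 (chr8:13159161-13175338, GRCm38) was at 163.9, 172.2, 199.4, 180.8 and 189.4 FPKM in the Ad-GHRKO libraries, against 220.8, 255.5, 199.5, 241.2 and 219.1 FPKM in the Flox libraries. The groups were just apart, with Ad-GHRKO 3 and Flox 3 nearly level. Its log2 change of -0.32 ± 0.13 (SE; 95% interval -0.62 to -0.03) had an adjusted p of 0.257, with 0.0549 to 0.479 over the 23 other settings. Lamp2 averaged 26.1 ± 7.64 FPKM in Ad-GHRKO and 22.8 ± 4.26 FPKM in Flox (log2 change 0.16, 95% interval -0.29 to 0.61). Whether counting used strand is not given, and Lamp1, Ctsb, Ctsd, Ctsl and Ctss overlap other annotated genes, so some of their reads could be shared.

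**Figure D3:**
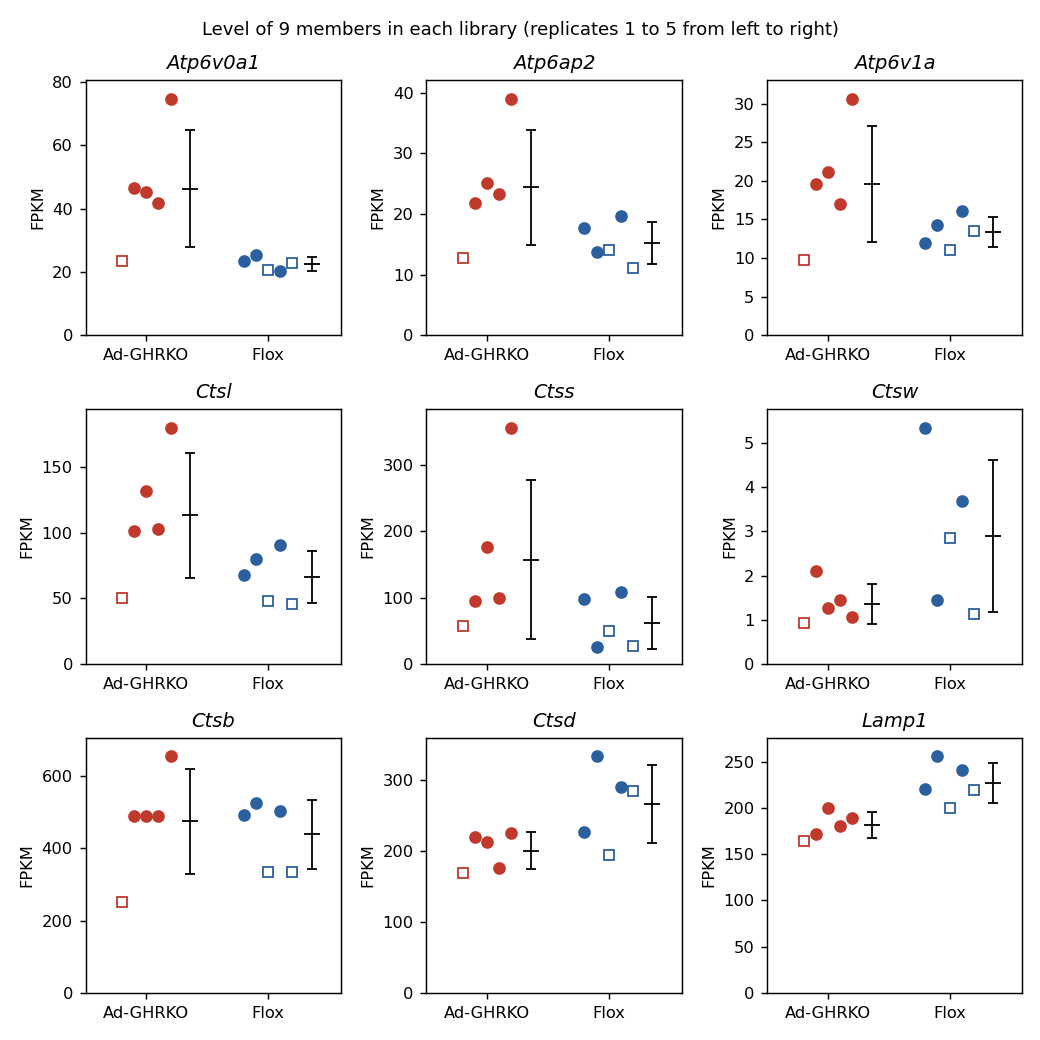
Points are FPKM in each library, replicates 1 to 5 from left to right, with Ad-GHRKO (red) left and Flox (blue) right; open squares mark the 3 libraries with over 1% of summed FPKM on the muscle list, and black bars the mean ± SD (n = 5). For Atp6v0a1, Atp6ap2, Atp6v1a and Ctsl the 4 filled Ad-GHRKO points lie above all Flox points and the open one does not. How many of all genes tested share this pattern was not counted. Lamp1 is the panel in which the groups do not overlap.

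**Figure D4:**
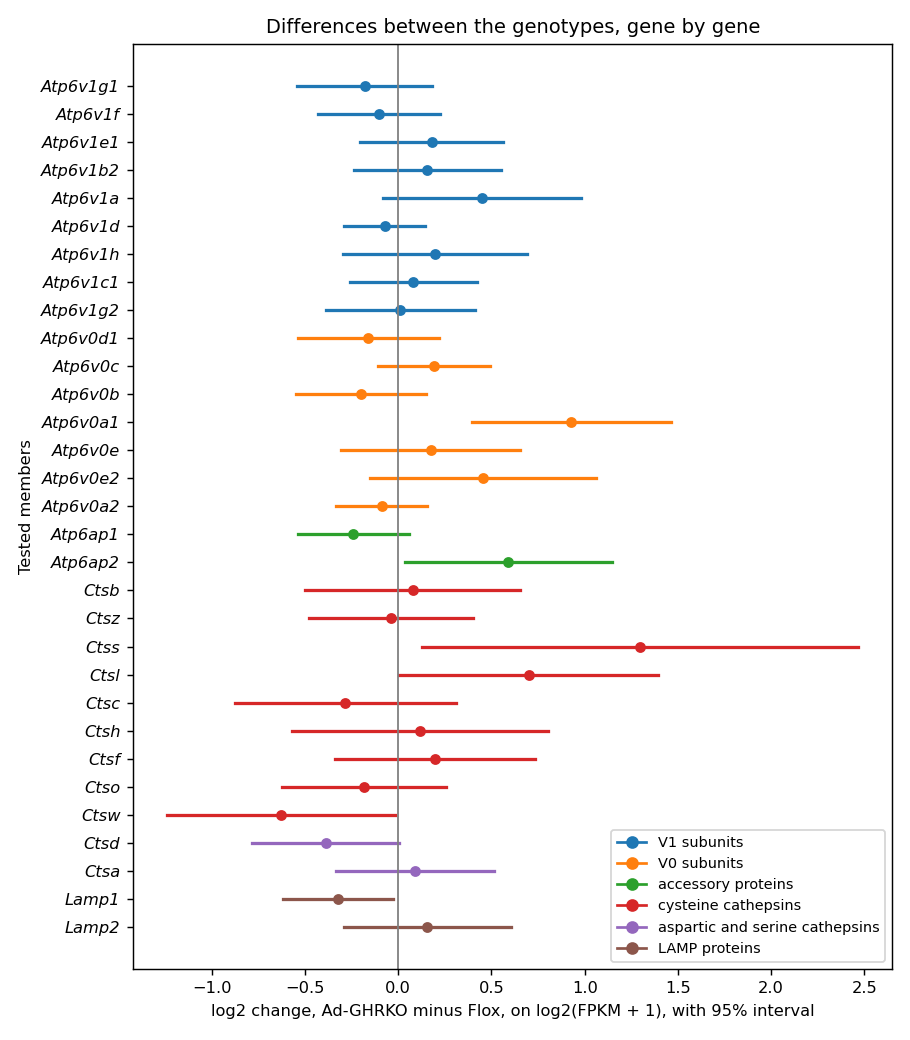
The log2 change, Ad-GHRKO minus Flox, of each tested member on log2(FPKM + 1), with its 95% interval from limma, coloured by role. Intervals of Atp6v0a1, Atp6ap2, Ctss and Ctsl lie above 0 and those of Lamp1 and Ctsw below it, before adjustment over the 12785 genes tested; none of the 31 passes after it.

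Below the filter lay 6 members, which were not tested. Atp6v0a4, known from kidney and inner ear, had 6, 17, 12, 2 and 9 reads in Ad-GHRKO libraries, against 1, 3, 1, 0 and 2 reads in Flox libraries. Atp6v1c2 had 2, 5, 3, 2 and 3 reads in Ad-GHRKO, against 4, 17, 6, 22 and 8 reads in Flox. The ranges of both genes overlapped. Atp6v1b1, known from kidney, had 0 to 6 reads in Ad-GHRKO and 0 to 12 in Flox, so Atp6v1b2 made up at least 99.4% of the B subunit FPKM in every library. Ctse, an aspartic protease of stomach and immune cells, had 5 to 23 reads, Ctsg, of neutrophil granules, 0 to 3 reads, and Ctsj, known from rodent placenta, 1 read in 1 library. The other gene left out by the rule, Ctsk, a collagen-degrading cathepsin of osteoclasts, was at 36.4 to 137 FPKM in Ad-GHRKO and 26.4 to 76.7 FPKM in Flox libraries (adjusted p = 0.636).

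Around these genes, the rest of the lysosomal machinery was likewise mostly below the threshold. So were most of all genes tested, of which 0.774% were called higher and 1.42% lower. Of 37 lysosomal hydrolases and activators, 0 rose and 1 fell: Acp5, tartrate-resistant acid phosphatase, was at 39.5 ± 13.4 FPKM in Ad-GHRKO and 146 ± 23.2 FPKM in Flox (log2 change -1.92 ± 0.23, adjusted p = 0.0022). The call on Acp5 held in the 23 other settings, with adjusted p up to 0.0197. No gene was called among 26 other lysosomal membrane proteins, 11 V-ATPase assembly and regulation genes, 4 cathepsin inhibitors, 22 sorting genes, 18 genes of the MiT-TFE factors and mTORC1 at lysosomes, and 24 autophagy genes. Positive and negative changes at an unadjusted p under 0.05 numbered 3 and 2 for hydrolases, 2 and 2 for membrane proteins, 0 and 0 for assembly, 1 and 0 for inhibitors, 2 and 0 for sorting, 2 and 3 for MiT-TFE and mTORC1, and 3 and 0 for autophagy. Of all genes tested, 16.4% reached that in either direction. The median log2 change was 0.05 over the hydrolases, 0.18 over the membrane proteins, 0.13 over assembly, 0.24 over the inhibitors, 0.14 over sorting, 0.01 over MiT-TFE and mTORC1, and 0.08 over autophagy, against 0.04 over all genes tested.

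Nearest to the threshold in these lists was Wipi1. It acts in autophagosome formation and averaged 15.7 ± 2.62 FPKM in Ad-GHRKO and 9.86 ± 1.28 FPKM in Flox (log2 change 0.61, adjusted p = 0.0511). Tmem192, a lysosomal membrane protein gene, averaged 7.66 ± 1.38 FPKM in Ad-GHRKO and 12.6 ± 2.09 FPKM in Flox (-0.65, 0.0565). Lamtor4 and Lamtor1, of the Ragulator complex that anchors mTORC1 on lysosomes, had log2 changes of -0.79 (0.067) and -0.61 (0.0777). Sqstm1, the autophagy receptor p62, had one of 0.47 (0.114), and Npc1, the lysosomal cholesterol exporter, one of 0.51 (0.16). The cation-independent mannose 6-phosphate receptor gene Igf2r, which sorts hydrolases to lysosomes, had one of 0.38 (0.181) and the retromer gene Vps35 one of 0.36 (0.29). The inhibitor genes Serpinb6a and Cstb had changes of 0.49 (0.239) and 0.35 (0.582), and the pump assembly gene Vma21 and the pump regulator gene Tmem9 of 0.34 (0.358) and -0.38 (0.365). Without Ad-GHRKO 1, Wipi1, Tmem192, Vps35, Lamtor4 and Lamtor1 passed the threshold with the same sign. That fit called 1185 of the 12785 genes tested, and these genes had been named for their small p. Over the 23 other settings, that fit included, Wipi1 and Tmem192 passed in 9 each, Lamtor4 in 5 and Lamtor1 in 3. Vps35 and Sqstm1 passed in 2 each, and Tmem9 in 1.

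Cell type markers that could carry lysosomal transcripts also varied. Of the 11 tested macrophage markers 0 were called, though all had positive log2 changes (median 0.38), with Lyz2 at 777 ± 395 FPKM in Ad-GHRKO and 525 ± 289 FPKM in Flox. Of 8 lipid-associated macrophage markers 2 rose (0.774% of all genes tested did), Trem2 (log2 change 1.85, adjusted p = 0.0039) and Lgals3 (1.94, 0.0488). In that list 6 changes were positive and 2 negative, from -0.59 to 1.94. The list summed to 463 to 1515 FPKM in Ad-GHRKO and 574 to 1136 FPKM in Flox libraries. Of 3 tested dendritic cell markers 1 rose, Itgax (1.59, 0.0447), and the other 2 had negative changes (median of the 3, -0.05). No marker was called among neutrophil (3 tested), mast cell (5), T and NK cell (3), B cell (4), adipocyte (8), adipose progenitor (6), endothelial (5) and skeletal muscle (3) genes, and the 6 epithelial markers were below the filter. At an unadjusted p under 0.05, which 16.4% of all genes reached, there were 4 adipocyte markers (1 positive), 3 lipid-associated macrophage markers, 1 macrophage marker and 1 dendritic cell marker (all positive), and 1 each for neutrophils and for T and NK cells (both negative). No marker list had a gene at 0 in all 10 libraries. With the macrophage marker score as a covariate, 0 members were called, 12 of 31 had positive changes and their median was -0.08. That fit called 1.45% of all genes tested, and over all of them 45.5% of changes were positive, with a median of -0.03.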

How the data were processed

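RNA sequencing libraries of inguinal white fat from 5 Ad-GHRKO and 5 Flox samples were compared. Per the labels' protocols, polyadenylated RNA was enriched with oligo(dT) beads and fragmented. The authors deposited FPKM values per gene, per the file headers. Which aligner and counter were used, and whether strand was, is not given in the sources. The submitters' processing notes name GRCm39, yet 99.5% of the 31253 gene identifiers shared with GENCODE M21 had its GRCm38 coordinates, so coordinates are given as GRCm38.

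The 12785 genes that reached 1 FPKM in 5 or more libraries entered a two-sided limma test (limma 3.58.1, R 4.3.3; eBayes with trend) of log2(FPKM + 1), with p-values adjusted over all of them after Benjamini and Hochberg and a threshold of 0.05. Log2 changes on this scale understate those of low genes. FPKM is relative to the library total, of which abundant muscle transcripts take a part. What this did to the other values of a library was not tested. Whole reads were recovered with GENCODE M21 exon lengths for 99.4% to 99.5% of values (tolerance 0.01). On them limma voom called 405 genes, and they served for read counts. Read counts cover counting error only. The fit was also run on simulated counts, drawn without differences in muscle share between libraries. That run cannot show how the fit behaves under the library differences seen here.

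The members and gene lists were chosen with earlier results of these data known. Members were given per library where they were Ctsb or Lamp1, passed the threshold, had the highest mean or smallest p of their role, or were among the 5 with the largest change at a mean of at least 2 FPKM. From each pathway list, genes past the threshold or else the 2 with the smallest p were named, and from cell type lists some of the most abundant. Tcirg1, Trem2 and Lgals3 were picked with their values in view. The alternatives tried were a filter of 5 FPKM or none, pseudocounts of 0.1 and 0.5, median ratio, quantile and TPM scaling, a replicate block, array weights, muscle or macrophage scores as covariates, and leaving out the muscle-rich or each single library. Python 3.11.15, pandas 2.3.3 and matplotlib 3.10.9 read and drew the data.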

Additional observations from a re-analysis of the deposited data

Results flagged for a closer look

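In the Ad-GHRKO group, Ad-GHRKO 1 lay far below the other 4 libraries for 3 members. Atp6v0d1 was at 45.7 FPKM there, against 69.9 to 77.1 FPKM in the others. Atp6v0e was at 19.6 FPKM, against 36.9 to 40.9 FPKM. Ctso was at 6.52 FPKM, against 11.7 to 12.7 FPKM. Each gap passed Dixon's 95% critical value for 5 samples. These were 3 of 64 groups examined, and chance flags about 1 in 20. The muscle list took 16.2% of the summed FPKM of this library, and its part in these values was not tested.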

How the results depend on the processing

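The count of all genes called was 280 and became 117 with no filter, 547 with median ratio scaling, 565 with quantile normalization, 85 with a replicate block, 1695 with array weights, 784 and 185 with the muscle and macrophage covariates, 777 without the muscle-rich libraries, and 116 to 1185 with single libraries left out, most without Ad-GHRKO 1. TPM rescaling turned the split of 99 higher and 181 lower into 139 higher and 91 lower, and moved the median log2 change of all genes to 0.13. The count of members called higher was 0 and became 1 (Atp6v0a1) with median ratio scaling, quantile normalization, the muscle covariate, limma voom and without the muscle-rich libraries, 2 with array weights (Atp6ap2 added), and 0 to 4 with single libraries left out. Members called lower stayed at 0 in all 23 settings. The log2 change of Ctsb turned negative with the macrophage covariate (-0.078) and without Ad-GHRKO 5, Flox 3 or Flox 5, and lay between -0.054 and 0.29 with single libraries left out. No pairing of the samples by replicate number was seen: same-numbered libraries had correlations of deviations from -0.49 to 0.39. Of the 5 Ad-GHRKO libraries, 1 correlated best with its own number. The replicate block called 0 members, as did the main fit, so that count does not bear on pairing. The deviations also carry the differences in muscle share, so a pairing could be hidden. The drop of Ghr kept its call throughout. The cause of these shifts was not tested.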
